A study of Mus musculus with 12 samples.

Results

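MHC class I presentation was followed through 10 genes in CD8 T cells that had or lacked TCF-1, before and after an allogeneic transplant. The genes were chosen by symbol and not by a threshold on their values, but earlier results of these data were known. The study itself names MHC class I presentation among the processes of its day 7 differential genes. The genes make up 10 of the 35855 genes in the gene table: H2-K1, H2-D1, B2m, Tap1, Tap2, Tapbp, Psmb8, Psmb9, Psmb10 and Nlrc5. Each was measured in 12 RNA-seq libraries that form 4 groups of 3. WT donors were C57BL/6 mice, and TCF-1 cKO donors were C57BL/6 mice with floxed TCF-1 alleles and a CD4cre transgene, so that the gene is lost during T cell development in the thymus. Pre-transplant libraries came from CD8 T cells sorted from donor spleen. Post-transplant libraries came from donor CD8 T cells sorted from the spleen of lethally irradiated BALB/c recipients on day 7 after they had received donor CD3 T cells. The recipients were also given T cell-depleted bone marrow of WT mice, which has the same MHC haplotype as the donor T cells. The age of the mice is not given in the labels, nor whether post-transplant libraries of a group came from separate recipients, so p-values measure the spread between libraries, which may be partly technical. The post-transplant sort used H2-Kb, the protein made from H2-K1, to separate donor from recipient cells, whereas no such gate is described for pre-transplant cells. For the library TCF-1 cKO post-transplant 2 the title gives CD8 T cells and the source name CD4 T cells. It was kept by its title, and its normalized CPM (counts scaled to library size and by TMM factors for composition) was 622 for Cd8a and 2.04 for Cd4.

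MHC class I molecules show peptides from inside a cell to CD8 T cells, and nearly all nucleated cells make them. The heavy chains H2-K and H2-D, encoded by H2-K1 and H2-D1, pair with beta-2 microglobulin from B2m. Peptides are cut by the proteasome, in which Psmb8, Psmb9 and Psmb10 are the interferon-inducible catalytic subunits that replace Psmb5, Psmb6 and Psmb7, then carried into the endoplasmic reticulum by the transporter Tap1/Tap2 and loaded with the help of tapasin, the product of Tapbp. Nlrc5 is the transactivator of class I genes in lymphocytes, and it acts with the RFX, CREB/ATF and NF-Y factors that sit on class I promoters. In allogeneic transplantation donor T cells recognize the MHC molecules of the recipient, whereas the libraries here were made from donor cells.

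Promoter stretches of the heavy chain genes and B2m are shown because they hold the letters through which class I genes are known to be switched on together. RefSeq promoters (GRCm38.p6) were found for 8 of the 10 genes, not for Tap2 and Nlrc5. Capitals mark, on either strand, the NF-kB consensus, the interferon response letters GAANNGAAA or GAAANNGAA, TGACG as bound by CREB/ATF, and CCAAT as bound by NF-Y. Where capitals of the NF-kB consensus run to 11 letters, overlapping matches were joined. The H2-K1 stretch lies at chr17:34000348-34000462 on the minus strand and ends at the start site. The H2-D1 letters lie at chr17:35262923-35262952 on the plus strand, between 171 and 142 bases upstream of the RefSeq start and inside a first exon that the annotation gives to another H2-D1 transcript. The B2m stretch lies at chr2:122147544-122147663 on the plus strand, between 143 and 24 bases upstream of the start.
H2-K1: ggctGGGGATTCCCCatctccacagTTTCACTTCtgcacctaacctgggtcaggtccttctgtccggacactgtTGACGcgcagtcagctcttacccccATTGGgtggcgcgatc
H2-D1: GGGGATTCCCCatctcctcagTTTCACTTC
B2m: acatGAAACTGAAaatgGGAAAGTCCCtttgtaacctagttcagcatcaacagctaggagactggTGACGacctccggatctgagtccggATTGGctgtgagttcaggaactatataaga
The heavy chain promoters, compared over the H2-K1 stretch and the matching 120 bases of H2-D1, had 103 identical columns of 120, or 85.8%. Tap1 and Psmb9 are read in opposite directions from RefSeq starts that lie 225 bases apart at chr17:34187331-34187555, and both CCAAT and TGACG occur between them. This stretch overlaps exons that the annotation gives to transcripts of both genes. Within 250 bases upstream of the start, the NF-kB consensus was found in 7.25% of all 32851 promoters, GAANNGAAA in 6.31%, GAAANNGAA in 7.13%, TGACG in 17.77% and CCAAT in 33.85%. Among the 8 genes the NF-kB consensus occurred in H2-K1, H2-D1 and B2m, GAANNGAAA in H2-K1 and H2-D1, and GAAANNGAA in B2m. TGACG occurred in H2-K1, H2-D1, B2m, Tap1 and Psmb9, and CCAAT in these and Tapbp. Psmb8 and Psmb10 held none of these letters in their 250 bases. TTCNNNGAA was searched as well, and it occurred in Psmb8 alone of the 8 genes and in 7.02% of all promoters. Such matches describe the sequence and were not measured as bound.

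Library totals were 4520270 to 9577076 estimated counts in TCF-1 cKO pre-transplant libraries and 18184814 to 32657005 in the other 9, and 3 counts, taken as the smallest visible level, correspond to 0.0919 to 0.664 CPM. Tcf7, the gene that encodes TCF-1, was at 117, 76.1 and 166 normalized CPM in WT pre-transplant libraries and at 26.3, 34.3 and 62.9 in TCF-1 cKO pre-transplant libraries. On day 7 it was at 26.9, 26.5 and 10.7 in libraries labelled WT and at 14.6, 13.7 and 14.1 in TCF-1 cKO libraries. The library labelled WT post-transplant 3 was thus below all 3 TCF-1 cKO libraries in Tcf7, which goes against its label, and it was the lowest WT library in 9 of the 10 class I genes. The sum over all Tcf7 transcripts includes parts outside the floxed region, so that it is a weak check, and the library was kept in its group. TCF-1 cKO pre-transplant 3 stood apart from its group in the other direction, near WT. Pre-transplant libraries held RNA of other cells: 6 B cell markers summed to 3939 to 12770 CPM before transplant and to 345 to 1023 on day 7, and Cd8a and Cd8b1 summed to 132 to 453 before and 1520 to 3085 after. No B cell marker was at 0 in any library. Myeloid markers summed to 847 to 3004 CPM before transplant and 187 to 763 after, and erythroid markers to 2121 to 17120 and 318 to 2618. In bulk RNA, fewer cells of a type and less RNA per cell cannot be told apart.

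In TPM, which allows genes to be set against each other because it is scaled for length, the heavy chains led in WT libraries before transplant. These are levels of all RNA in a library and sums over all transcript forms. In WT pre-transplant libraries B cell markers summed to 8733 to 12770 CPM and Cd8a with Cd8b1 to 349 to 453. The part of other cells in the levels was not tested. WT pre-transplant libraries had 4439 ± 202 TPM of H2-D1 (SD, n = 3), 3563 ± 228 of H2-K1, 1926 ± 631 of B2m and 891 ± 115.9 of Psmb8, and these 4 were ordered beyond their spread. Next came Tapbp at 336 ± 73.4, Psmb9 at 323 ± 13.4 and Psmb10 at 276 ± 68.5, which were within their spread of each other, as were Tap1 at 143 ± 13.4 and Tap2 at 127 ± 33.8. Nlrc5 was the lowest at 31.5 ± 1.64. The order of the mean levels was different in TCF-1 cKO libraries on day 7, where B2m was first at 1074 ± 163 TPM, followed by Psmb8 at 645 ± 572, H2-K1 at 577 ± 239 and H2-D1 at 518 ± 109, and neighbours among these 4 did not differ beyond their spread. Below them were Psmb9 at 108 ± 44.4, Psmb10 at 64.6 ± 8.15, Tap1 at 23.8 ± 5.49, Tapbp at 15.5 ± 6.18, Tap2 at 15.3 ± 2.85 and Nlrc5 at 8.97 ± 0.751. Psmb9 and Psmb10 were within their spread of each other, and Tapbp was within its spread of both Tap1 and Tap2. In WT libraries on day 7 the means of H2-D1, H2-K1 and Psmb8 were 4508 ± 2889, 2812 ± 1273 and 2419 ± 953 TPM, which overlapped, and TCF-1 cKO pre-transplant libraries had 2780 ± 1531 of H2-D1, 2138 ± 1078 of H2-K1 and 1476 ± 432 of B2m. B2m was above H2-K1 in TCF-1 cKO pre-transplant 1 and 2 and above H2-D1 in the latter, so that the order was not the same in all libraries of that group.

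On day 7 both heavy chains, the transporter, tapasin and the immunoproteasome subunits were lower in TCF-1 cKO cells than in WT cells. All 10 log2 fold changes (TCF-1 cKO over WT) were negative, except that B2m was at 0.05 on library totals, and 8 of the 10 genes were lower at an FDR below 0.1 by edgeR's quasi-likelihood test. Of all genes tested, 15.4% were called lower. The 2 genes that did not pass were B2m and Nlrc5. In normalized CPM all TCF-1 cKO libraries were below all WT libraries in 9 genes, where 17.3% of all genes showed this. In TPM Nlrc5, among these 9, overlapped between the genotypes. The median over the 10 genes was -3.03, against 0.15 over all 16026 genes tested. An exact two-sided permutation test of a single gene, 3 libraries against 3, cannot go below p = 0.1, the value reached by each of the 9. With any 1 of the 3 TCF-1 cKO libraries or of WT post-transplant 1 and 2 left out, 0 of the 10 genes passed and 0 to 2 of all genes, and the values of the 10 genes stayed negative. Without the library labelled WT post-transplant 3, 8 passed, as did 5299 genes in all. Over all genes, which do not count as replicates, day 7 fold changes had a Spearman's rho of -0.551 with GC content, and 9 of the 10 genes were richer in GC (51.9% to 60.5%) than the median gene tested at 49.7%. With an offset for GC content and length, 829 genes were called in all, 5 of the 10 genes passed, the median over the 10 was -1.45, and all 10 values were negative. Markers of T cells also differed on day 7: of 6, Cd3e (-2.81) and Cd5 (-3.21) were called lower in TCF-1 cKO, Trac was at -0.88, and Cd3d, Cd3g and Cd2 had positive values, and their sum was 5222 to 6702 CPM in the WT group and 6678 to 9081 in TCF-1 cKO. Dendritic markers summed to 139 to 315 CPM in the WT group and 68.9 to 90.1 in TCF-1 cKO. Of these 6, Itgax and Bst2 were called lower, the other 4 had positive values, and the list median was 0.34. CD4 T cell markers summed to 12.6 to 53.1 and 2.83 to 10.6, with 1 of 2 called lower. Zbtb7b had means of 28.5 and 3.56 CPM, while Cd4 itself had means of 3.92 and 4.23. B cell markers summed to 617 to 1023 and 345 to 580, with 0 of 6 called. Myeloid markers summed to 187 to 274 and 200.4 to 763, with 2 of 7 called higher, Lyz2 and S100a9. The part of these in the class I values was not tested.

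**Figure D1:**
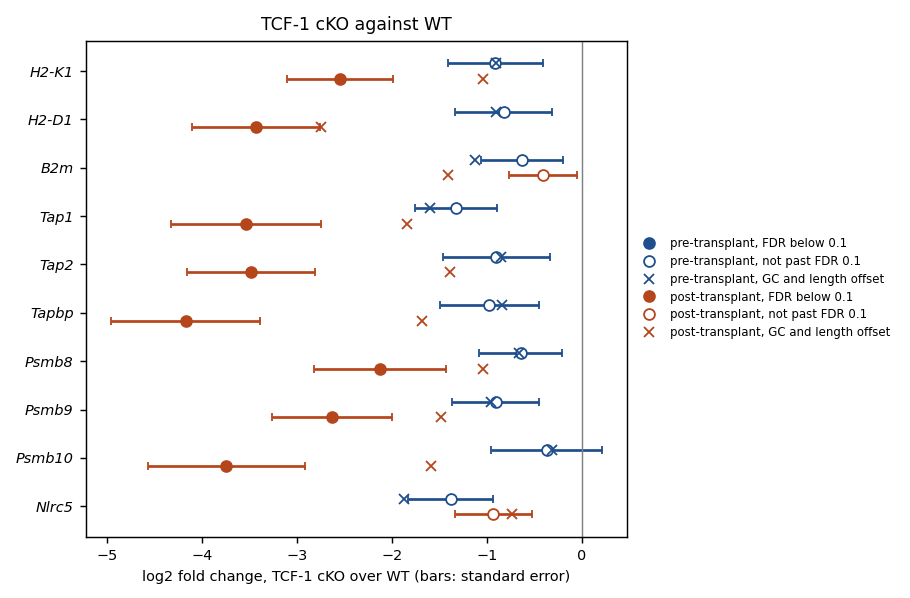
Log2 fold change of TCF-1 cKO over WT (horizontal axis) for the 10 genes, pre-transplant (blue) and on day 7 (red). Bars are standard errors, filled circles passed an FDR of 0.1, and crosses are the values with an offset for GC content and length. All values are negative (B2m on day 7 is at 0.05 on library totals), and the 8 filled points on day 7 lie between -4.17 (Tapbp) and -2.13 (Psmb8).

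Before transplant all 10 values were negative too (median -0.90, against 0.05 over 18757 genes), but 0 of the 10 genes passed. Called lower were 0.0213% of all genes, and 2 of the 10 genes (Tap1 and Nlrc5) had an unadjusted p below 0.05, as did 3322 of all 18757. In 5 genes, H2-K1, B2m, Tap1, Psmb9 and Nlrc5, all TCF-1 cKO libraries were below all WT libraries in normalized CPM, which 14.2% of all genes showed. In TPM B2m, among these 5, overlapped between the genotypes. DESeq2 called 2 of the 10 genes among 1451 in all, and limma-voom with sample quality weights 9 among 7566. The outcome turned on TCF-1 cKO pre-transplant 3: without it 9 of the 10 genes passed, all but B2m, and so did 2739 genes in all. The 6 T cell markers were each lower in all TCF-1 cKO than in all WT libraries before transplant, with sums of 264 to 464 and 877 to 1041 CPM and none called. The sums of myeloid markers (847 to 1145 and 1319 to 3004) and dendritic markers (54.5 to 116.4 and 156 to 190) did not overlap either, and those of B cell markers were 3939 to 9446 and 8733 to 12770. The part of these in the values of the class I genes was not tested.

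H2-K1 was at 3384, 3415 and 3737 normalized CPM in WT pre-transplant libraries and at 1036, 836 and 3198 in TCF-1 cKO pre-transplant libraries. On day 7 the values were 8506, 11990 and 3835 in the WT group, the last in the library labelled WT post-transplant 3, and 1508, 2343 and 1191 in TCF-1 cKO. The genotypes did not overlap at either stage, though TCF-1 cKO pre-transplant 3 came close to WT. The log2 fold change was -0.91 (SE 0.50, adjusted p = 0.341) before transplant and -2.55 (SE 0.56, adjusted p = 0.0448) on day 7, and with the GC and length offset the latter was -1.04 (adjusted p = 0.127).

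H2-D1 encodes the other heavy chain. It measured 5419, 5387 and 6202 normalized CPM in WT and 1809, 1368 and 5531 in TCF-1 cKO cells before transplant. On day 7 it measured 16660, 28250 and 4506 in the WT group and 2366, 1352 and 2049 in TCF-1 cKO. The genotypes overlapped before transplant, where TCF-1 cKO pre-transplant 3 exceeded 2 WT libraries, and not on day 7. Its log2 fold change was -0.82 (SE 0.51, adjusted p = 0.390) before and -3.43 (SE 0.68, adjusted p = 0.0448) after transplant, and it kept a pass with the offset (-2.74, adjusted p = 0.0909). Reads of H2-K1 and H2-D1 may be shared with their close paralogs, so the division between them is uncertain. H2-K1 held 22% to 40.5% and H2-D1 23.4% to 51.9% of the counts summed over the class I heavy chain genes, and the sum itself gave a log2 fold change of -2.95 on day 7 (adjusted p = 0.0449).

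B2m encodes the light chain of class I molecules. Its normalized CPM was 1065, 554 and 1141 in WT and 496, 535 and 473 in TCF-1 cKO cells before transplant. On day 7 it was 1555, 1815 and 1470 in the WT group and 1717, 1435 and 1224 in TCF-1 cKO. The genotypes were apart before transplant (log2 fold change -0.63, SE 0.43, adjusted p = 0.427) and overlapped on day 7 (-0.41, SE 0.36, adjusted p = 0.476). In TPM they overlapped before transplant as well, at 2280, 1197 and 2300 in WT and 1628, 1811 and 988 in TCF-1 cKO. B2m also has the lowest GC content of the 10 genes, 41.2%, and its day 7 value with the GC and length offset was -1.41 (adjusted p = 0.114).

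Tap1 and Tap2 form the transporter that moves peptides into the endoplasmic reticulum. Tap1 was at 283, 242 and 359 normalized CPM in WT and at 82.0, 65.0 and 167 in TCF-1 cKO cells before transplant, and on day 7 at 992, 2592 and 301 in the WT group and 164, 94.7 and 161 in TCF-1 cKO. The genotypes did not overlap at either stage, and the log2 fold change was -1.32 (SE 0.43, adjusted p = 0.218) before and -3.53 (SE 0.79, adjusted p = 0.0448) after transplant. Tap2 was at 209, 281 and 216 in WT and at 84.6, 30.1 and 232 in TCF-1 cKO before transplant, and at 681, 1303 and 256 against 105, 72.4 and 71.3 on day 7. For Tap2 the groups overlapped before transplant (-0.90, SE 0.57, adjusted p = 0.392) and were apart on day 7 (-3.49, SE 0.67, adjusted p = 0.0448). Both passed with the GC and length offset, at -1.85 (adjusted p = 0.0969) and -1.38 (adjusted p = 0.0910).

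Tapbp, whose product tapasin bridges the transporter and empty class I molecules, showed the most negative value of the 10 genes on day 7. Its normalized CPM was 528, 591 and 579 in WT and 144, 114 and 532 in TCF-1 cKO cells before transplant, and on day 7 it was 856, 2325 and 336 in the WT group and 122, 55.7 and 66.9 in TCF-1 cKO. Before transplant TCF-1 cKO pre-transplant 3 lay within the WT range and on day 7 the groups were apart. The log2 fold change was -0.97 (SE 0.52, adjusted p = 0.329) and then -4.17 (SE 0.79, adjusted p = 0.0448), which placed Tapbp at the 0.8 percentile of all genes tested on day 7. With the GC and length offset the value was -1.69 (adjusted p = 0.0909), and H2-D1 (-2.74) and Tap1 (-1.85) were then more negative. Tapbp has the highest GC content of the 10 genes, 60.5%.

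Psmb8, Psmb9 and Psmb10 are the immunoproteasome subunits. Psmb8, the inducible partner of Psmb5, was at 559, 647 and 595 normalized CPM in WT and at 248, 202 and 578 in TCF-1 cKO cells before transplant. On day 7 it reached 4187, 6761 and 2498 in the WT group and 695, 2330 and 573 in TCF-1 cKO, with TCF-1 cKO post-transplant 2 just under the lowest WT library. The log2 fold change was -0.65 (SE 0.44, adjusted p = 0.426) before and -2.13 (SE 0.70, adjusted p = 0.0894) after transplant. Psmb9, the partner of Psmb6, was at 249, 229 and 280 in WT and 69.3, 76.5 and 217 in TCF-1 cKO before transplant, and at 1002, 1644 and 416 against 173, 279 and 146 on day 7. Its groups were apart at both stages, with log2 fold changes of -0.91 (SE 0.46, adjusted p = 0.309) and -2.63 (SE 0.63, adjusted p = 0.0456). Psmb10, the partner of Psmb7, was at 157, 225 and 159 in WT and 58.5, 43.4 and 286 in TCF-1 cKO before transplant, and at 1220, 2547 and 238 against 153, 105 and 118 on day 7. The highest pre-transplant value of Psmb10 was in TCF-1 cKO pre-transplant 3, so the groups overlapped (-0.37, SE 0.58, adjusted p = 0.733), whereas on day 7 they did not (-3.75, SE 0.83, adjusted p = 0.0448). With the GC and length offset Psmb9 passed on day 7 (-1.49, adjusted p = 0.0978), while Psmb8 was at -1.05 (adjusted p = 0.269) and Psmb10 at -1.59 (adjusted p = 0.106).

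Nlrc5, the class I transactivator, was low in all groups. It was at 101, 95.2 and 129 normalized CPM in WT and at 40.8, 40.4 and 22.7 in TCF-1 cKO cells before transplant, and at 55.6, 66.2 and 76.2 in the WT group and 49.0, 36.6 and 37.2 in TCF-1 cKO on day 7. In normalized CPM the groups were apart at both stages, with log2 fold changes of -1.38 (SE 0.45, adjusted p = 0.215) before and -0.94 (SE 0.41, adjusted p = 0.174) after transplant, and neither passed. In TPM they overlapped on day 7, at 7.17, 4.67 and 15.1 in the WT group and 8.52, 8.55 and 9.84 in TCF-1 cKO. Nlrc5 was the gene in which, in normalized CPM, TCF-1 cKO pre-transplant 3 was the lowest of all 12 libraries and the library labelled WT post-transplant 3 the highest of its group.

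**Figure D2:**
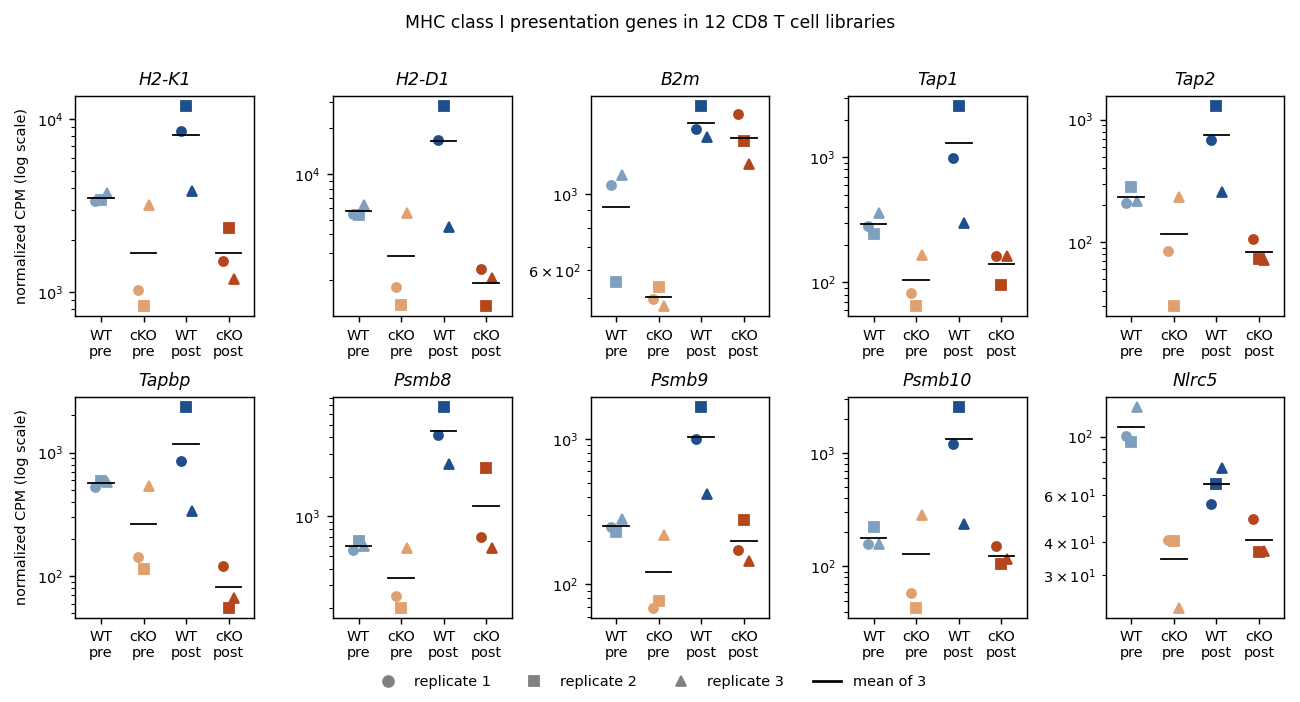
Normalized CPM (log scale) of each of the 10 genes in the 12 libraries, by group, with symbols for replicates 1 to 3 and a line at the mean of 3. In 9 panels every TCF-1 cKO post-transplant library is below every WT post-transplant library, while B2m overlaps. TCF-1 cKO pre-transplant 3 (triangle) lies near WT in 7 panels, H2-K1, H2-D1, Tap2, Tapbp, Psmb8, Psmb9 and Psmb10.

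From pre-transplant to day 7, the 3 immunoproteasome subunits and Tap1 rose in WT cells, 4 of the 10 genes in all: Psmb8 (log2 fold change 2.66, SE 0.49, adjusted p = 0.00673), Psmb10 (2.65, SE 0.74, adjusted p = 0.0393), Tap1 (1.89, SE 0.69, adjusted p = 0.0990) and Psmb9 (1.78, SE 0.55, adjusted p = 0.0586). Called higher were 9.70% of all genes, and 10.3% were called lower, which none of the 10 genes was. H2-D1, Tap2, H2-K1, Tapbp and B2m had positive values of 1.31, 1.43, 0.97, 0.80 and 0.56 and did not pass. In 5 genes (H2-K1, B2m, Psmb8, Psmb9 and Psmb10) every day 7 library was above every pre-transplant library in normalized CPM, against 15.9% of all genes. In TPM Psmb8 alone of these 5 showed this. Nlrc5 alone had a negative value, at -0.98 (SE 0.46, adjusted p = 0.198), with every day 7 library below every pre-transplant library, which 16.2% of all genes showed. The median over the 10 genes was 1.37, against -0.30 over the 16790 genes tested. Left out, the library labelled WT post-transplant 3 changed the count to 8 (4156 genes in all), and leaving out WT pre-transplant 1, 2 or 3 or WT post-transplant 1 brought it to between 1 and 2 (1579 to 2134 in all).

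In TCF-1 cKO cells 3 of the 10 genes passed over the same interval. B2m rose (1.53, SE 0.33, adjusted p = 0.00757) and so did Psmb8 (1.81, SE 0.63, adjusted p = 0.0572), whereas Tapbp fell (-1.69, SE 0.61, adjusted p = 0.0677), although on library totals B2m was at -0.09 and Psmb8 at 0.35 (adjusted p = 0.589), and 7 of the 10 genes were called, all lower. Of all genes, 19.7% were called higher and 16.8% lower in this comparison. In normalized CPM B2m was the only one of the 10 genes in which all day 7 libraries were above all pre-transplant libraries, against 23.1% of all genes. In TPM the stages overlapped for B2m. The other 7 lay between -0.59 (H2-D1) and 0.72 (Psmb9), with H2-K1 at -0.004 and Psmb10 at -0.04. Without TCF-1 cKO pre-transplant 3, 6 genes passed, all higher, namely H2-K1, B2m, Tap1, Psmb8, Psmb9 and Psmb10, and Tapbp was at -0.57 (adjusted p = 0.269). Without TCF-1 cKO post-transplant 2, 1 passed. With the GC and length offset B2m was at 0.32 (adjusted p = 0.447) and Tap1 at 1.36 (adjusted p = 0.00919).

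The scale of these stage comparisons depends on how library composition is handled. Scaling by library totals alone moved the median of all genes from -0.30 to -1.25 in WT and from -0.29 to -1.89 in TCF-1 cKO. On library totals the stage values of H2-K1, B2m and Tapbp in WT were -0.09, -0.39 and -0.33, those of Tap1, Psmb9 and Nlrc5 in TCF-1 cKO were -1.11, -0.75 and -1.44, the 7 genes called lower in TCF-1 cKO were H2-K1 (-1.45), H2-D1 (-2.06), Tap1, Tap2 (-1.92), Tapbp (-3.15), Psmb10 (-1.46) and Nlrc5, and of the rises in WT Psmb8 alone passed (1.59, adjusted p = 0.0224), while Nlrc5 was called lower in WT (-1.92, adjusted p = 0.0178). The 2 scales differ by 1 factor per library, so values relative to the median of all genes are bound to be nearly the same. They do not tell which scale holds. Psmb8 was 2.96 and 2.85 above that median in WT, B2m 1.82 and 1.79 above it in TCF-1 cKO, and Tapbp -1.40 and -1.26 from it in TCF-1 cKO. Marker RNA also differed between stages: all 6 B cell markers fell from pre-transplant to day 7 in both genotypes, while Cd8a and Cd8b1 rose. Class I genes are expressed by B cells as well as T cells, and the part of that change in these values was not tested.

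**Figure D3:**
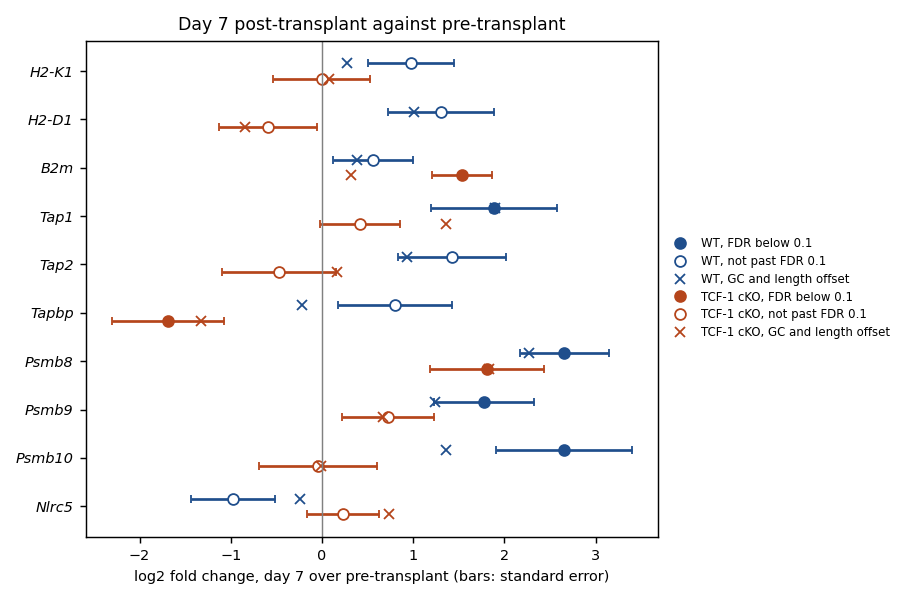
Log2 fold change of day 7 over pre-transplant (horizontal axis) for the 10 genes in WT (blue) and TCF-1 cKO (red). Bars are standard errors, filled circles passed an FDR of 0.1, and crosses are the values with an offset for GC content and length. Psmb8 is the only gene filled in both genotypes, and Tapbp lies at 0.80 in WT (-0.33 on library totals) and -1.69 in TCF-1 cKO.

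An interaction term, fitted to the 12 libraries together, asked whether the genotype difference changed between stages. The change was negative in 8 of the 10 genes, with a median of -1.51, and none passed by edgeR, where 0.00465% of all genes were called. Psmb10 (-2.94, SE 1.07, adjusted p = 0.25), Tapbp (-2.74, SE 0.97, adjusted p = 0.249), Tap2 (-2.14, SE 0.93, adjusted p = 0.292) and H2-D1 (-2.13, SE 0.89, adjusted p = 0.284) had unadjusted p-values below 0.05, as did 3377 of all 21526 genes. B2m and Nlrc5 had positive values of 0.73 and 0.96. DESeq2 called 3 of the 10 genes among 1713 in all, and without the library labelled WT post-transplant 3 edgeR called 4 (H2-D1, Tap1, Tapbp and Psmb10) among 2093 genes.

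The ratio of inducible to constitutive proteasome subunit RNA is taken within a library and so does not depend on the scaling between libraries. The TPM used are sums over all transcript forms of a gene, including forms that are not protein-coding. Psmb9 over Psmb6 in TPM was 1.07, 0.623 and 0.871 in WT and 0.479, 0.850 and 1.12 in TCF-1 cKO cells before transplant. On day 7 it was 0.418, 0.382 and 0.199 in the WT group and 0.228, 0.136 and 0.214 in TCF-1 cKO, below all pre-transplant libraries of either genotype. Psmb6 rose from pre-transplant to day 7 by 3.21 on the log2 scale in WT (adjusted p = 0.00347) and by 3.12 in TCF-1 cKO (adjusted p = 0.00261), and Psmb9 had values of 1.78 and 0.72. Psmb8 over Psmb5 stayed between 2.65 and 4.65 in all 12 libraries. Psmb10 over Psmb7 was 2.81 to 10.6 before transplant, then 7.90, 23.7 and 0.904 in the WT group and 0.375, 0.326 and 0.220 in TCF-1 cKO, so that Psmb7 exceeded Psmb10 in the 3 TCF-1 cKO libraries and the library labelled WT post-transplant 3 and in no other. Psmb7 itself rose in TCF-1 cKO by 4.41 on the log2 scale (adjusted p = 0.000175) and in WT by 2.39 (adjusted p = 0.0172), and has a GC content of 44.7%, against 58.4% for Psmb10.

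**Figure D4:**
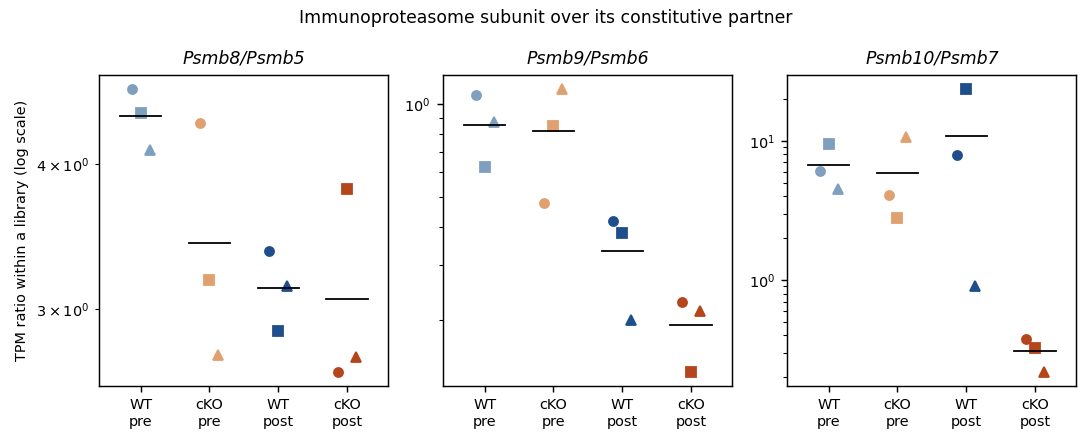
Ratio of each immunoproteasome subunit to its constitutive partner in TPM (log scale, a different range in each panel) in the 12 libraries, with symbols for replicates 1 to 3 and a line at the mean of 3. Psmb9/Psmb6 is lower in all 6 day 7 libraries than in all 6 pre-transplant libraries, and Psmb10/Psmb7 is below 1 in the TCF-1 cKO day 7 libraries and the library labelled WT post-transplant 3 (0.904).

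The shares of transcript forms differed between stages for some of the genes. Retained-intron forms of H2-K1 held 11.7% to 15.9% of its TPM in pre-transplant libraries and 0.82% to 2.91% on day 7, and for Tap1 the shares were 6.53% to 16.2% and 0.24% to 0.87%. Neither range overlapped between stages. For Nlrc5 the split was within the day 7 libraries: protein-coding forms held 74.0% and 81.4% of its TPM in WT post-transplant 1 and 2, against 17.4% in the library labelled WT post-transplant 3 and 10.1% to 20.7% in TCF-1 cKO, where retained-intron forms held 58.7% to 70.8%. Before transplant the protein-coding share of Nlrc5 was 60.1% to 87.9%. For Tap2 a retained-intron transcript led in all 12 libraries, with 76.5% to 88.4% of its TPM. For Psmb9 protein-coding forms held 16.8% to 24.7%, and Psmb9-207, which is neither protein-coding nor a retained-intron form, led with 56.9% to 76.9%. The retained-intron share of Psmb9 was 7.87% to 26.3% before transplant and 1.92% to 3.01% on day 7. For Psmb8 retained-intron forms held 43.2% to 53.7% over the 12 libraries. These shares are Kallisto's division of reads among overlapping transcripts, and Nlrc5 was at 4.67 to 15.1 TPM in day 7 libraries.

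Other genes of the pathway were taken as lists. Of all genes tested on day 7, 15.4% were called lower in TCF-1 cKO, the share beside which the counts below stand. Of 17 other class I heavy chain genes tested on day 7, 5 were lower in TCF-1 cKO, led by H2-Q7 (-3.27, SE 0.62, adjusted p = 0.0448) and H2-Q6 (-3.02, SE 0.60, adjusted p = 0.0448), and none was higher. The list median was -0.95. Of 11 peptide loading and trimming genes, 2 were lower, Sec61a1 of the translocon (-3.17, adjusted p = 0.0448) and Tapbpl, the tapasin-related editor TAPBPR (-2.63, adjusted p = 0.0459), and the median was 0.45. The 3 PA28 proteasome activator genes held no call on day 7, and of the 3 constitutive catalytic subunits Psmb5 was lower (-2.27, adjusted p = 0.0627). The medians were -0.26 for PA28 and -1.52 for the constitutive subunits, against -3.03 for the 10 genes. With the GC and length offset H2-Q6 (-1.12, adjusted p = 0.114) and Psmb5 (-0.70, adjusted p = 0.367) did not pass, while H2-Q7 (-1.71, adjusted p = 0.0909), Sec61a1 (-2.59, adjusted p = 0.0909) and Tapbpl (-1.80, adjusted p = 0.0960) did. Before transplant none of the genes in these 4 lists passed, nor did any of the transcription factor, interferon signalling or class II lists, by edgeR, and their medians were -0.34 to -0.89.

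Of 16 transcription factor genes known to act on class I promoters, 7 were lower in TCF-1 cKO on day 7 and none was higher. For this list and the next, 15.4% of all 16026 genes tested were called lower and 403 genes were called higher. Among them were Rela, an NF-kB subunit (-4.28, SE 1.14, adjusted p = 0.0520), Rfxap, an RFX subunit (-3.05, adjusted p = 0.0448), Irf8 (-2.94, adjusted p = 0.0474) and Nfyc, an NF-Y subunit (-2.42, adjusted p = 0.0459). Irf9, which carries interferon signals, was at -2.03 (adjusted p = 0.0561). Of 11 interferon signalling genes, 2 were lower, the feedback inhibitor Socs1 (-3.77, adjusted p = 0.0448) and the kinase Tyk2 (-2.60, adjusted p = 0.0585), and 1 was higher, Ifng, which encodes interferon-gamma (1.70, SE 0.52, adjusted p = 0.0773). Ifng was at 34.3, 27.9 and 75.3 normalized CPM in the WT group and at 107, 203 and 191 in TCF-1 cKO on day 7, the reverse of the order in the class I genes. With the GC and length offset Ifng (0.90, adjusted p = 0.216), Rela (-2.07, adjusted p = 0.179), Irf8 (-0.83, adjusted p = 0.252), Nfyc (-1.39, adjusted p = 0.102), Socs1 (-1.69, adjusted p = 0.102) and Tyk2 (-1.55, adjusted p = 0.134) did not pass, while Rfxap (-2.17, adjusted p = 0.0930) and Irf9 (-1.90, adjusted p = 0.0924) did.

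Class II presentation genes, which professional antigen-presenting cells use, differed from class I over time. All 10 class II genes fell from pre-transplant to day 7 in both genotypes, with medians of -6.30 in WT and -6.70 in TCF-1 cKO. Over this interval 10.3% of all genes were called lower and 9.70% higher in WT. In TCF-1 cKO the shares were 16.8% and 19.7%, and the list counts below stand beside them. Cd74, the invariant chain, was at 4524 to 17830 normalized CPM before transplant and at 23.2 to 234 on day 7. On day 7, 3 of the 10 were lower in TCF-1 cKO than in WT, where 15.4% of all genes were called lower. The class II sum moved with the B cell markers, and the part of other cells was not tested. The constitutive subunits all rose in both genotypes (3 of 3 each), as did 2 of 3 PA28 genes in WT and 3 of 3 in TCF-1 cKO, where Psme2 rose by 4.59 on the log2 scale (adjusted p = 0.000171). Peptide loading genes rose in 2 of 11 in WT (Sec61g and Sec61b) and in 7 of 11 in TCF-1 cKO, led by Sec61g (4.91), Sec61b (3.67), Pdia3 (2.59) and Hspa5 (2.52), and neither genotype had one that fell. Heavy chain paralogs went both ways, with 2 of 17 higher and 2 lower in WT and 1 higher and 5 lower in TCF-1 cKO, and H2-T22 was the gene higher in both (2.27 and 1.92). Transcription factors were called lower in 2 of 16 in WT (Rfx5 and Stat2) and lower in 4 and higher in 3 in TCF-1 cKO, and interferon signalling genes were called lower in 2 of 11 in each genotype (Ifngr2 and Ifnar2) and higher in 1 and 3, Ifng in both.

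**Figure D5:**
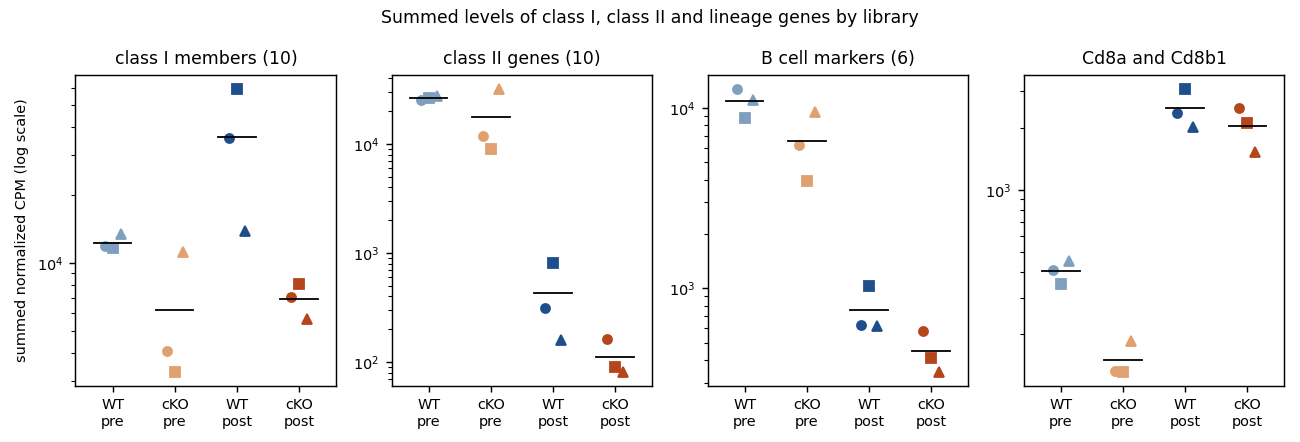
Summed normalized CPM (log scale, a different range in each panel) of the 10 class I presentation genes, 10 class II genes, 6 B cell markers, and Cd8a with Cd8b1 in the 12 libraries, with symbols for replicates 1 to 3 and a line at the mean of 3. The class I sum is 5637 to 8102 in TCF-1 cKO on day 7 and 13930 to 59300 in the WT group, while class II genes and B cell markers are lower on day 7 than before transplant in both genotypes.

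Over the 12 libraries, 8 of the 10 genes had much the same pattern, and B2m and Nlrc5 less so. Pearson's r between the log2 normalized CPM of a gene and the mean of the other 9 was 0.791 to 0.973 for the 8 and 0.509 for B2m and 0.380 for Nlrc5. With group means removed, the 8 were at 0.639 to 0.959, B2m was at 0.138 and Nlrc5 at -0.580. The libraries share depth and composition differences, so these values are descriptions. The genes whose pattern was most like the mean of the 10 genes, of 17856 ranked, were Snrpb, Dda1 and Shkbp1 (each r = 0.993), Gpi1 (0.990) and Cnn2 (0.989). In all, 598 genes (3.35%) had r above 0.9.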

How the data were processed

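RNA of sorted CD8 T cells was measured in 12 libraries (SMART-Seq HT cDNA, Nextera XT, paired-end NovaSeq reads; no strand-marking step is described). The submitters' processing notes name Kallisto 0.46.2, limma and the build mm9, and the transcript release is not given in the sources used here. The authors deposited for each of 117497 transcripts an estimated count, which is not normalized, and a TPM, which Kallisto scales for effective length and library size. Transcripts were joined without version numbers to GENCODE M21 (GRCm38), possibly not the submitters' release. A gene was found for 116374, and values were summed over 35855 genes and counts rounded.

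Each comparison was fitted over its 6 libraries with edgeR 4.0.16 (TMM, filterByExpr, quasi-likelihood test, Benjamini-Hochberg over all genes tested) at the study's FDR of 0.1, and the interaction over all 12. The standard error is the log2 fold change over the square root of F. Normalized CPM used TMM factors over all 12 libraries. The GC content and length offset removed loess trends (span 0.4, degree 2). R 4.3.3 was used with limma 3.58.1 and DESeq2 1.42.0. The level of 3 counts covers counting error only.

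The 10 genes, the lists and the tests were chosen with earlier results of these data known. Named were all 10 genes, label checks (Tcf7, Cd8a, Cd8b1, Cd4), Psmb5, Psmb6 and Psmb7, up to 4 called genes of a list with the largest change, and the 5 genes most like the mean. Irf9, H2-T22, the T cell markers that were not called, and Cd74 and Ifng levels, were named after their values were seen. Alternatives were limma-voom, the same with sample quality weights, DESeq2, DESeq2 size factors, library totals, other filters, counts scaled from TPM, an FDR of 0.05, a replicate block, GC and length offsets, 1 fit over 12 libraries, thinning to the smallest total, summed heavy chain genes and leaving out each library. Replicate libraries of a group differed by more than counting error in every pair.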

Additional observations from a re-analysis of the deposited data

How the results depend on the processing

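Settings moved the number of the 10 genes called more than the sign of their values. On day 7 the number lower in TCF-1 cKO was 8, and leaving out each library in turn gave 0 to 8. With an offset for GC content and length it was 5, then 0 with the replicate block and that offset together, and 3 with an offset from abundance-weighted transcripts, chosen after seeing the data. Before transplant it was 0, with 9 under limma-voom with sample quality weights, 2 under DESeq2, 1 without a filter and 0 to 9 with a library left out. For day 7 against pre-transplant in WT it was 4, with 2 at an FDR of 0.05, 2 under limma-voom, 8 under sample quality weights, 2 on library totals, 2 with the replicate block, 1 with the block and the offset, and 1 to 8 with a library left out. In TCF-1 cKO it was 3, with 1 at an FDR of 0.05, 5 under sample quality weights, 7 on library totals (all lower, where the 3 were 2 higher and 1 lower), 1 with the replicate block and 1 to 6 with a library left out. For the interaction it was 0, with 3 under DESeq2, 2 without a filter and 0 to 4 with a library left out. The cause of these moves was not tested. Genes called in all went from 7 to 7566 before transplant and from 2868 to 7591 on day 7 under sample quality weights, and to 562 on day 7 under the abundance-weighted offset.

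Values turned sign mainly in the TCF-1 cKO stage comparison. On library totals B2m was at -0.093, Tap1 at -1.105 and Nlrc5 at -1.438, where the median of all genes was -1.887. Psmb10 was at 1.124 under sample quality weights, and with each library left out in turn H2-K1 ranged from -0.295 to 0.986 and Psmb10 from -0.37 to 1.4, the highest without TCF-1 cKO pre-transplant 3. For the genotype comparisons 219 of 219 pre-transplant estimates and 218 of 219 day 7 estimates kept their sign over 22 alternatives, the exception being B2m at 0.05 on library totals. The replicate numbers did not pair the libraries: same-numbered libraries of the groups compared had correlations of -0.094 to 0.085 between their deviations from group means. With the replicate block 8 genes were called on day 7 and 0 before transplant. Leaving out a library leaves 1 group with 2, and thinning all libraries to the smallest total kept the counts of 0 before transplant and 8 on day 7.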
